A study of Mus musculus with 6 samples.

Results

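The genes described here are the plasminogen activation genes of a mouse breast carcinoma line: *Plau*, *Plaur*, *Plat*, *Serpine2* and *Serpinb2*. They were chosen by gene symbol, by a rule that used no measured value but with earlier results of these data known, and all 5 were among the 24421 genes of the count table. All 5 also passed the filter on low counts, which kept 13084 genes. Total RNA was sequenced from 4T1-tetL1(GLucAI) cells, a derivative of the 4T1 line of strain BALB/cfC3H. All 6 cultures, controls included, carried a LINE-1 (L1) retrotransposition cassette that a tetracycline-controlled activator switches on when doxycycline is present. L1 is a mobile element that copies itself through reverse transcription, and the series asked how its induction changes the transcriptome. One group of 3 libraries was untreated (called vehicle in the treatment tag) and the other group of 3 was labelled doxycycline (48 h at 400 ng/mL). The line is described as a stable population, and whether it is 1 clone is not stated. Cassette-free cells given doxycycline were not analysed here, so the effect of the drug and that of L1 cannot be told apart. The transcript of the cassette was not analysed here either, so the labels were not checked by it and every direction rests on them.

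Plasminogen is an inactive protease precursor that is cut to plasmin by either of a pair of activators. These are urokinase, encoded by *Plau*, and tissue-type plasminogen activator, encoded by *Plat*. Urokinase binds to a lipid-anchored receptor on the cell surface, encoded by *Plaur*, which places plasmin formation at the cell membrane. Serpins inhibit these proteases by forming a covalent complex with them. *Serpine2* encodes protease nexin, a secreted serpin that inhibits thrombin, plasmin and both activators, and *Serpinb2* encodes a largely intracellular serpin that inhibits urokinase. In breast carcinoma the urokinase system is known for its part in matrix breakdown and invasion.

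In the libraries labelled doxycycline, *Plat* and *Serpine2* fell by 27.4% and 29.6%, and all 3 of these libraries lay below all 3 untreated ones for both genes. *Plau* differed by less than the spread between libraries. The values of *Plaur* and *Serpinb2* were higher in every library labelled doxycycline than in every untreated one, by 12.8% and 69.2%, but neither passed the threshold. So 2 of the 5 genes were called lower and 0 higher, where 2.16% of all tested genes were called lower, 0.925% higher and 3.09% in either direction (edgeR quasi-likelihood test, adjusted p under 0.05 by Benjamini-Hochberg). For 4 of the 5 genes the ranges of both groups were separate in CPM (counts normalised to library size, scaled by TMM factors), against 21.3% of all tested genes. For *Serpinb2* the gap was very small, with a highest untreated value of 1.20 CPM and a lowest doxycycline value of 1.22 CPM. The median log2 fold change was -0.06 over the 5 genes and 0.002 over all tested genes.

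The promoters were read from RefSeq (GRCm38.p6), as 250 bases before and 50 bases after a transcription start. They are shown because the 3 genes with a sequence there, *Plaur*, *Serpine2* and *Serpinb2*, differ in level and in the direction of their values. *Plau* and *Plat* were the genes without one. Capitals mark matches, which may overlap each other, on either strand to AP-1 (TGANTCA), to the GC box (GGGCGG) and to the TATA box (TATAAA). The cyclic AMP response element TGACGTCA was searched too and had no match.
Plaur, chr7:24462233-24462532, plus strand: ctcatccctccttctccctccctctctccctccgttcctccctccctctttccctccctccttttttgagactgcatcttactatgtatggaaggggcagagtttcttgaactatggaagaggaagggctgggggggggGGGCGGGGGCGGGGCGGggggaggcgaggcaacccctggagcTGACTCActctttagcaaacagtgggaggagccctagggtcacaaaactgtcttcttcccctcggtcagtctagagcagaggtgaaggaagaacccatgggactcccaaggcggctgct
Serpine2, chr1:79858616-79858915, minus strand: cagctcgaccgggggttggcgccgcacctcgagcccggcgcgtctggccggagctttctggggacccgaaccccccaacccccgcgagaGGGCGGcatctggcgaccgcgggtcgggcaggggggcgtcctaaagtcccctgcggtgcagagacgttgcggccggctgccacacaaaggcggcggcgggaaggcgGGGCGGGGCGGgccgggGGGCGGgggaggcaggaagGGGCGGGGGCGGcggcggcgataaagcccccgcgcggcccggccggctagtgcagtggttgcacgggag
Serpinb2, chr1:107511173-107511472, plus strand: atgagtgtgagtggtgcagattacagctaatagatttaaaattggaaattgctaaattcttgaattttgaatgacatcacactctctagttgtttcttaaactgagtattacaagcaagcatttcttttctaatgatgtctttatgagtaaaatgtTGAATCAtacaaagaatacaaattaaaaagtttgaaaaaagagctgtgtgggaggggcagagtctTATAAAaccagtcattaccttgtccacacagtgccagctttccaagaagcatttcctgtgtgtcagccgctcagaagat
The *Plaur* promoter held the AP-1 sequence TGACTCA with its leftmost base 69 bases before the start, and 3 GC boxes, which began 111, 105 and 100 bases before it. The *Serpine2* promoter, with 77.7% G and C, had a higher GC content than 98.1% of the 32851 promoters in the table, and it held 6 GC boxes, from 161 to 13 bases before the start. This start lies inside the gene model used for its coordinates, which extends further upstream to another transcript. The *Serpinb2* promoter was AT-rich, with 35.3% G and C, and only 4% of promoters lay below it. It held a TATA box 29 bases and an AP-1 match (TGAATCA) 94 bases before the start. Over all promoters of the table, 7.8% held an AP-1 match, 35.7% a GC box, 13.6% a TATA box and 1.8% the cyclic AMP response element. These matches describe the letters of the window and are not measured sites.

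Levels of the 5 genes were compared with each other per kilobase, first of merged exons, as CPM divided by length. On this scale *Plau* was the highest of the 5 genes, at 47.0 to 52.4 CPM per kb over the 6 libraries, and its mean lay above that of 94% of the 12577 tested genes with a length. *Plaur* followed at 33.4 to 40.9 CPM per kb, above 90.8% of genes. *Plat* stood far lower, at 2.03 to 3.23 CPM per kb. *Serpine2* had 1.11 to 1.90 CPM per kb and *Serpinb2* 0.455 to 0.956 CPM per kb, above 23.4% and 15.9% of genes. The ranges of neighbours in this order did not overlap, and the order was the same in all 6 libraries. The gaps between neighbours depended on the gene model. With the longest transcript as the length, 4 of the 6 libraries kept the order, *Plaur* stood above *Plau* in doxycycline replicate 2 (53.2 against 47.5 CPM per kb) and *Serpine2* above *Plat* in untreated replicate 2 (4.63 against 4.11 CPM per kb). The members of each of these pairs therefore cannot be ranked by these data.

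**Figure D1:**
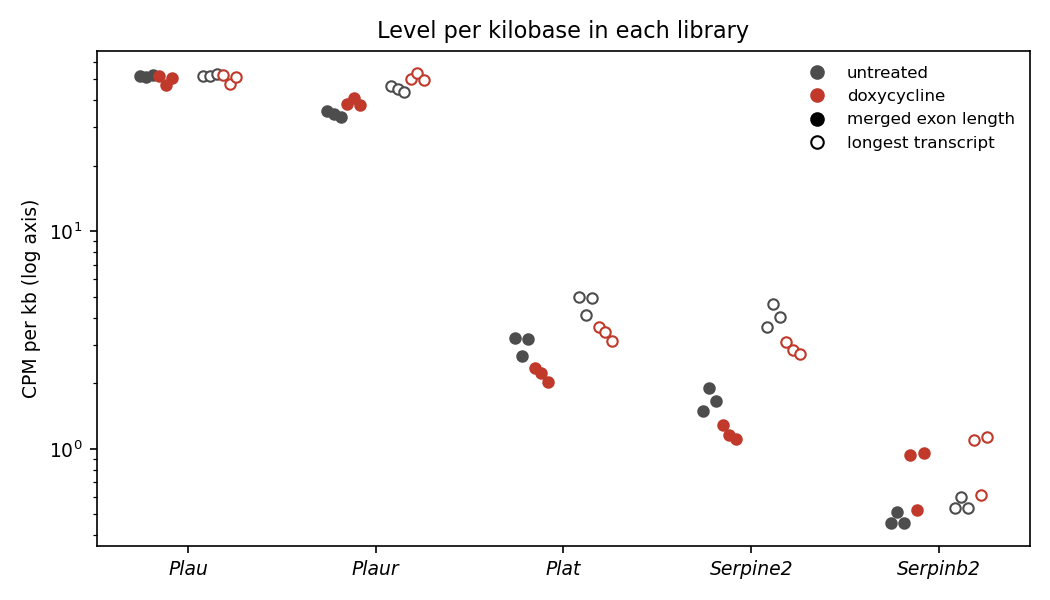
Level of each plasminogen activation gene per kilobase (y axis, CPM per kb, log scale) in the 6 libraries, with grey points for untreated libraries and red points for those labelled doxycycline. Filled points use the merged exon length and open points the longest transcript. *Plau* and *Plaur* sit together at the top, *Plat* and *Serpine2* lie well below them and *Serpinb2* is lowest in every library.

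*Plau* (ENSMUSG00000021822.3, GRCm38 chromosome 14, 20836660 to 20843385, protein-coding) had 121.6, 121.4 and 124.1 CPM in untreated replicates 1 to 3. It had 122.3, 111.3 and 119.2 CPM in the libraries labelled doxycycline. The groups overlapped, and doxycycline replicate 2 was the lowest of all 6 libraries. On the log2 scale the groups differed by -0.06 (SE 0.05, 95% interval -0.16 to 0.04, edgeR adjusted p 0.607), so an increase of more than 0.04 or a decrease of more than 0.16 on the log2 scale lies outside the interval.

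*Plaur* (ENSMUSG00000046223.10, chromosome 7, 24462484 to 24475968, protein-coding) had 93.7, 90.8 and 87.4 CPM without doxycycline and 100.5, 106.9 and 99.2 CPM with it. The groups did not overlap, with the highest untreated value in replicate 1 and the lowest of the other group in replicate 3. The log2 fold change was 0.17 (SE 0.05, 95% interval 0.07 to 0.28), with an edgeR adjusted p of 0.0721. The call was made by the DESeq2 Wald test (adjusted p 0.0455) and after a correction for GC content and transcript length (edgeR adjusted p 0.0118), and in none of the 6 fits that left out a library.

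*Plat* (ENSMUSG00000031538.6, chromosome 8, 22757727 to 22782844, protein-coding) had 20.2, 16.6 and 19.9 CPM without doxycycline and 14.7, 13.9 and 12.7 CPM with it. Untreated replicate 2 was the closest to the other group, and still lay above all of it. The mean was 18.9 ± 1.98 CPM without and 13.8 ± 1.01 CPM with the drug (SD, n = 3 each). By edgeR the log2 difference was -0.46, with an SE of 0.10 and an adjusted p of 0.00845. The call was lost without untreated replicate 1 (edgeR adjusted p 0.0775), untreated replicate 3 (0.0798) or doxycycline replicate 3 (0.069), with log2 fold changes of -0.41, -0.42 and -0.41.

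The ratio of both activators, per kilobase, moved with *Plat*. *Plau* exceeded *Plat* by a factor of 15.9, 19.3 and 16.4 without doxycycline, and of 22.0, 21.1 and 24.8 with it. The size of this ratio depends on the lengths used, and its relative difference between groups does not. The ratio of *Plau* to its receptor *Plaur* was 1.44, 1.48 and 1.57 without doxycycline and 1.35, 1.15 and 1.33 with it, again without overlap. The size of this ratio also depends on the lengths used, so its values above 1 do not rank the pair. Both ratios are descriptions and were not tested.

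*Serpine2* (ENSMUSG00000026249.10, chromosome 1, 79794197 to 79861180, protein-coding) had 12.3, 15.7 and 13.8 CPM without doxycycline and 10.6, 9.62 and 9.22 CPM with it. All 3 libraries of the second group were lower than the lowest untreated one, which was replicate 1. The mean was 13.9 ± 1.69 CPM without and 9.80 ± 0.691 CPM with the drug (SD, n = 3 each). By edgeR the log2 difference was -0.51, with an SE of 0.11 and an adjusted p of 0.0104. This call was lost without untreated replicate 2 (edgeR adjusted p 0.0949), untreated replicate 3 (0.0555) or doxycycline replicate 3 (0.072), with log2 fold changes of -0.41, -0.51 and -0.46. Without untreated replicate 3, both *Plat* and *Serpine2* were short of the threshold, and the same held without doxycycline replicate 3.

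*Serpinb2* (ENSMUSG00000062345.10, chromosome 1, 107511423 to 107535478, protein-coding) was scarce, with 47, 40 and 40 counts without doxycycline and 70, 50 and 86 counts with it. These correspond to 1.07, 1.20 and 1.07 CPM and to 2.20, 1.22 and 2.25 CPM. Doxycycline replicates 1 and 3 stood clearly apart, while replicate 2 lay at the upper edge of the untreated libraries. The log2 fold change was 0.76 (SE 0.28, 95% interval 0.18 to 1.34), with an edgeR adjusted p of 0.158. Without doxycycline replicate 2 it was 1.0 and passed the threshold (edgeR adjusted p 0.0232), and in the other 5 fits that left out a library it ran from 0.61 to 0.81 and did not. *Serpinb2* overlaps *Serpinb10* on the same strand, which had 0 counts in 5 libraries and 2 in untreated replicate 3.

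**Figure D2:**
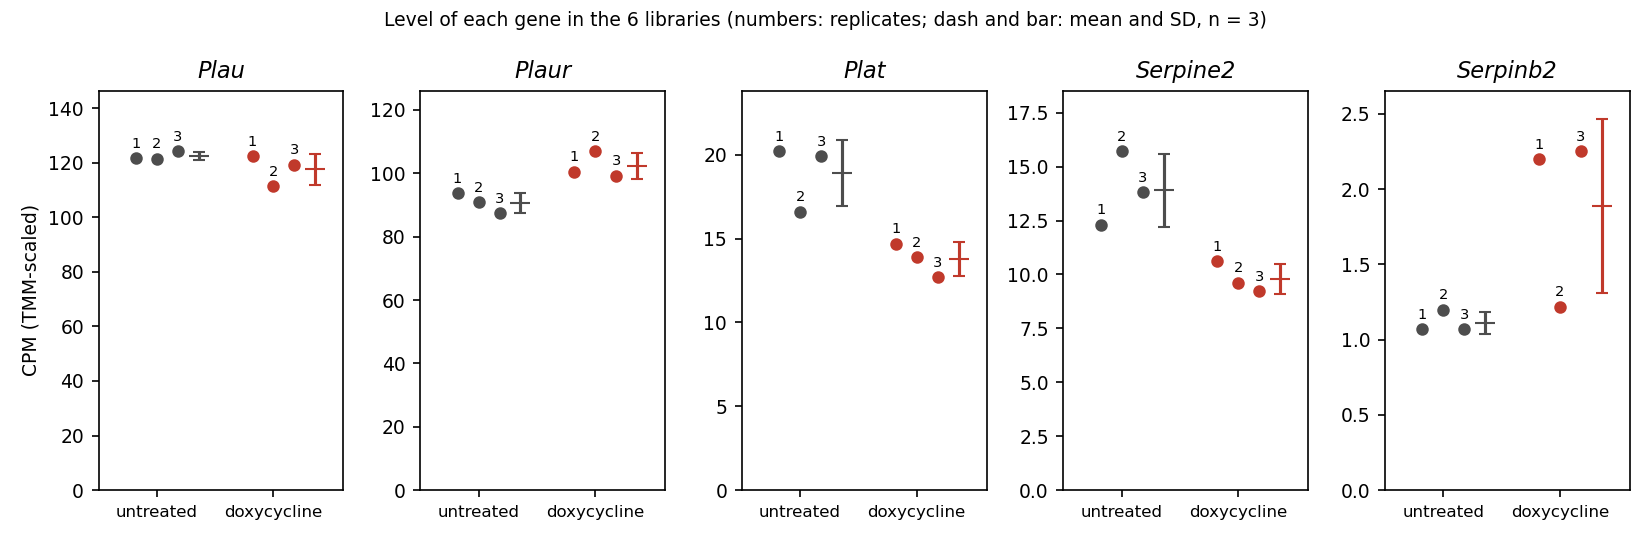
CPM of each plasminogen activation gene (y axes, each from 0) in the untreated libraries (grey) and in those labelled doxycycline (red), with the replicate number above each point and the mean and SD (n = 3) beside it. *Plat* and *Serpine2* show 3 red points below 3 grey points, *Plaur* shows the reverse with a narrow gap, and 1 of the 3 red points of *Serpinb2* sits at the grey level.

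Of 52 further genes of the plasmin system, written down by role, 30 were tested and 9 had no count in any library. Only *F2r* was called, and it was lower. Over all tested genes 3.09% were called in either direction and 2.16% lower (edgeR). *F2r* encodes the thrombin receptor PAR1, a protease-activated receptor. *F2r* had 168.3, 161.6 and 166.1 CPM without doxycycline and 139.8, 136.5 and 146.8 CPM with it, with a wide gap between the groups. By edgeR its log2 difference was -0.23, with an SE of 0.05 and an adjusted p of 0.00637, and the call was lost without untreated replicate 1 (0.059) or 3 (0.0616). Among the 30 tested genes the groups lay apart with lower values in doxycycline for 10 and with higher values for 0, where all tested genes gave 11.1% and 10.1%. The median log2 fold change of the 30 was -0.10. Of the 30 genes 8 had an unadjusted p under 0.05, against 16.2% of all tested genes (edgeR).

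Plasminogen itself, *Plg*, was at 0 counts throughout. A count of 0 allows a level of 0.0683 to 0.0944 CPM, depending on the library (3 counts, counting error only). Of the cell-surface proteins that bind it, *Plgrkt* had 16.2 ± 0.302 CPM without and 14.8 ± 0.237 CPM with doxycycline (SD, n = 3 each, log2 fold change -0.13, edgeR adjusted p 0.498). *Anxa2* and *S100a10*, the subunits of a complex that binds plasminogen and tissue-type activator, were abundant, at 713.1 ± 13.6 and 308.9 ± 5.90 CPM in untreated libraries. Their log2 fold changes were -0.10 and -0.07 (edgeR adjusted p 0.248 and 0.429). *Eno1* was listed at 0.939 and 1.14 CPM. It is known to have near-identical copies in the genome and the handling of multi-mapping reads is not stated, so its counts are uncertain.

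Among the other inhibitors, 4 of 9 were tested and 0 called, where 3.09% of all tested genes were called (edgeR). *Serpinb6a*, an intracellular serpin, had 244.3 ± 2.72 and 226.2 ± 1.78 CPM (SD, n = 3 each, log2 fold change -0.11, edgeR adjusted p 0.187), and its family has closely related copies. *Serping1*, the inhibitor of complement C1 and of factor XII, was named after its values were seen, because its log2 fold change of -1.12 (SE 0.34) was far from 0 at an edgeR adjusted p of 0.0812. It had 1.39, 1.02 and 1.26 CPM without doxycycline and 0.786, 0.539 and 0.392 CPM with it, from only 15 to 61 counts per library. Of 8 alternatives that kept all libraries and gave a value, 2 passed, with adjusted p from 0.0447 to 0.0929 over the 8. Of the fits that left out a library, *Serping1* passed only without doxycycline replicate 1 (edgeR adjusted p 0.0443). The rest gave 0.114 to 0.29. In the serpin family as a whole, 61 rows other than *Serpine2* and *Serpinb2* were listed. Of these 24 had no count in any library, 18 were tested and 0 were called (edgeR), where 3.09% of all tested genes were. Of the 18 tested rows 4 had an unadjusted p under 0.05, against the same 16.2% of all tested genes.

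Proteases that activate pro-urokinase or plasminogen had 4 tested members, and 0 were called, where 3.09% of all tested genes were (edgeR). At that share, lists of this size may hold no called gene. *Ctsl* (cathepsin L) had 1445.4 ± 22.9 CPM in untreated libraries and a log2 fold change of 0.03 (edgeR adjusted p 0.766). *Ctsb* (cathepsin B) had 364.6 ± 14.1 and 331.0 ± 10.4 CPM (SD, n = 3 each, log2 fold change -0.14, edgeR adjusted p 0.11). Of 10 tested partners and clearance receptors of the urokinase receptor, 0 were called, beside the same 3.09%. The integrin subunits *Itgb1* and *Itga3* led them by CPM, with fold changes of 0.999 and 1.04 (edgeR adjusted p 0.989 and 0.608).

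Around clotting and fibrinolysis, 8 of 16 genes were tested and *F2r* was the called one. Of all tested genes 3.09% were called in either direction and 2.16% lower (edgeR). The fibrinogen genes *Fga*, *Fgb* and *Fgg* had 0 counts in all 6 libraries, with the same limit as *Plg*. *F2rl1*, which encodes the related trypsin receptor, had 107.5 ± 3.75 and 99.1 ± 1.81 CPM (SD, n = 3 each, log2 fold change -0.12, edgeR adjusted p 0.222). *Procr*, the receptor of activated protein C, had a log2 fold change of 0.03 (edgeR adjusted p 0.863). *Tgfb1*, which encodes a growth factor that plasmin can release from its latent form, was named after its values were seen. It had 77.2, 78.3 and 78.1 CPM without doxycycline and 66.4, 70.5 and 68.0 CPM with it (log2 fold change -0.19, SE 0.05, edgeR adjusted p 0.0545). It passed in 5 of 9 alternatives that kept all libraries, with adjusted p from 0.0103 to 0.0691 over the 9. Of the fits that left out a library, it passed without doxycycline replicate 2 (edgeR adjusted p 0.00873) and in none of the other 5 (0.0994 to 0.215).

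**Figure D3:**
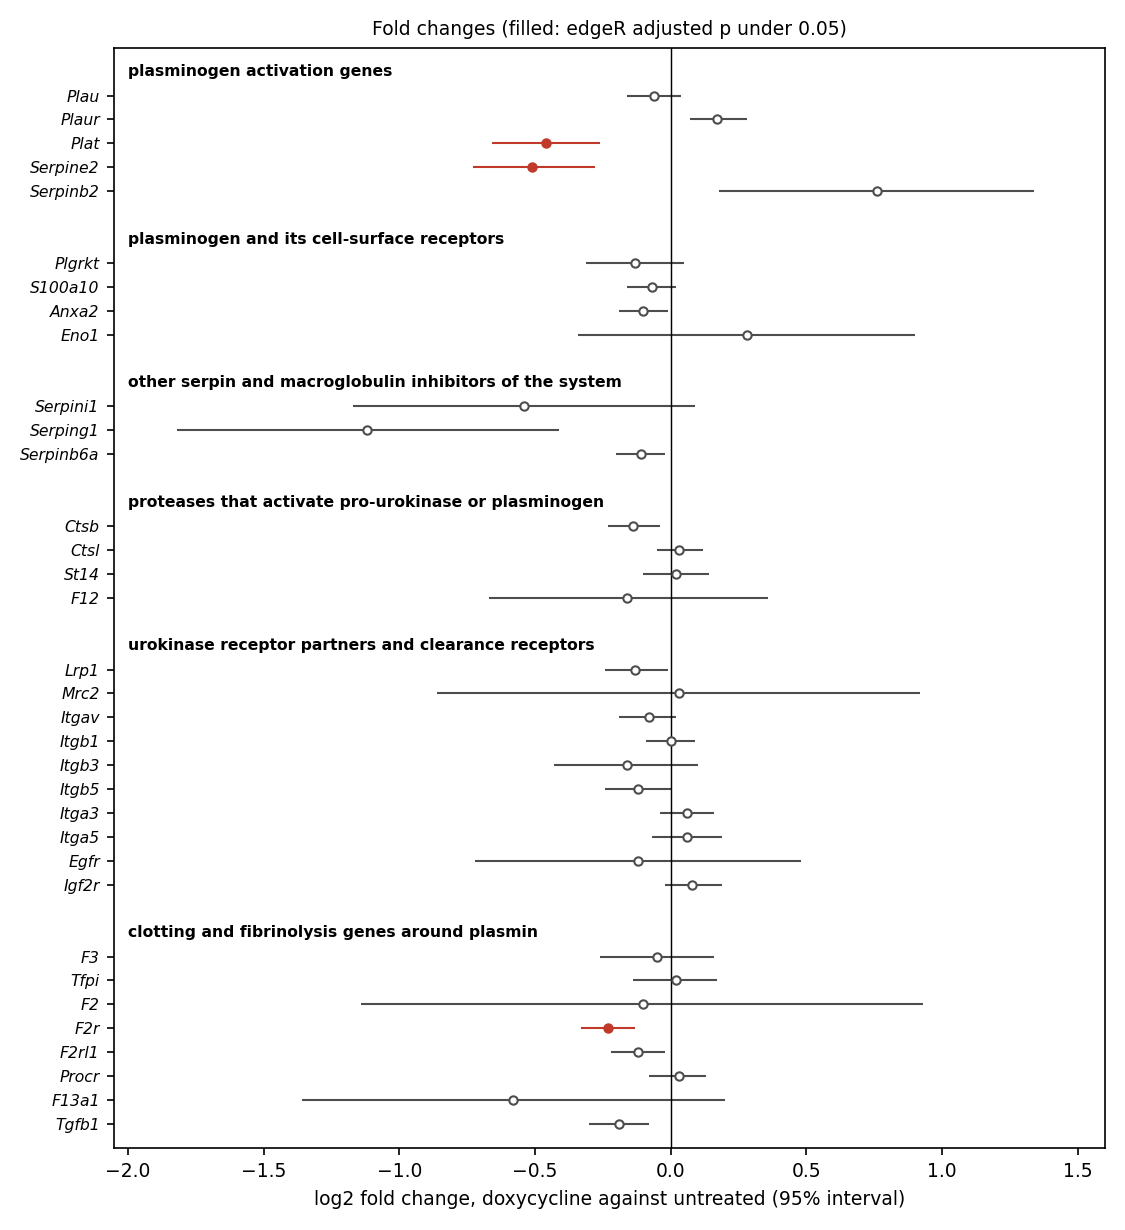
Log2 fold change of the libraries labelled doxycycline against untreated libraries (x axis) with its 95% interval, for the 5 plasminogen activation genes and the tested genes of the plasmin system, grouped by role, with 1 tested gene not drawn. Filled red points passed an edgeR adjusted p under 0.05, and these were *Plat*, *Serpine2* and *F2r*.

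The genes whose level followed each of the 5 most closely were found by Pearson's r of log2 CPM over the 6 libraries, among 11656 tested genes with a mean of at least 1 CPM. With 6 libraries high values are common, since 42 to 126 genes reached an r of 0.95 with each of the 5 genes, so these values are descriptions. The r spans both groups, so it favours genes with the same group difference. Calls in the same direction among the closest genes follow in part from this choice. *Plat* was closest to *Nrip1* (0.994), *Dpysl2* (0.992) and *Cnnm2* (0.991), of which *Nrip1* and *Cnnm2* were called lower, with log2 fold changes of -0.20 and -0.46 (edgeR adjusted p 0.0323 and 0.04). *Serpine2* was closest to *Crem* (0.997), *Pcbp3* (0.989) and *Lnx1* (0.983), and 0 of these were called. The receptor gene *Plaur* was closest to *Lsg1* (0.997), *Adam19* (0.988) and *Rbm15* (0.984). Of these *Adam19*, which encodes a membrane-bound metalloproteinase, was called higher, at 39.5 ± 1.43 CPM in the first group and 47.8 ± 2.32 CPM in the second (SD, n = 3 each, log2 fold change 0.28, edgeR adjusted p 0.014). *Plau* was closest to *Tbl1xr1*, *Spred1* and *Cdkn1b* (0.993 to 0.994). *Serpinb2* was closest to *Esyt2*, *Cldn12* and *Pip4k2a* (0.985 to 0.991).

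Library totals ran from 31653464 to 43631312 counts, and their ranges overlapped between groups. No pair of replicates agreed within sampling noise, so each library was counted once. Doxycycline replicate 2 stood farthest from its group (chi-square per degree of freedom 14.5 and 22.06 against the others, which gave 6.85), and without it 756 genes were called, against 404. Epithelial markers were present, with 0 of 9 at 0 and a summed level of 1866.1 to 1950.3 CPM without and 1814.7 to 2045.8 CPM with doxycycline. Of these 9 only *Krt19*, a keratin gene, was called, and it was lower (log2 fold change -0.31, edgeR adjusted p 0.00782). Over all tested genes 3.09% were called. *Epcam*, *Cldn4* and *Cldn7* were higher without overlap between groups, as were 10.1% of all tested genes, but were not called. Their log2 fold changes were 0.13, 0.25 and 0.33 (edgeR adjusted p 0.336, 0.0858 and 0.23). The groups overlapped for the other epithelial markers. Of 8 fibroblast markers 3 were at 0 (*Col3a1*, *Lum* and *Thy1*), and the summed level was 35.7 to 38.7 CPM against 28.0 to 29.6 CPM. Nearly all of it was *Pdgfra*, which was called lower. Of 8 leukocyte markers 2 were at 0 (*Adgre1* and *Tyrobp*), with sums of 26.2 to 28.9 CPM and 21.3 to 24.2 CPM, mostly *Cd14* and *Cd68*. Of these *Cd14* was called lower (log2 fold change -0.48, edgeR adjusted p 0.00482), while *Cd68* had -0.05 (adjusted p 0.875). The part of these shifts in the values of *Plat* and *Serpine2* was not tested, and in bulk RNA fewer cells of a type and less RNA per cell cannot be told apart.

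**Figure D4:**
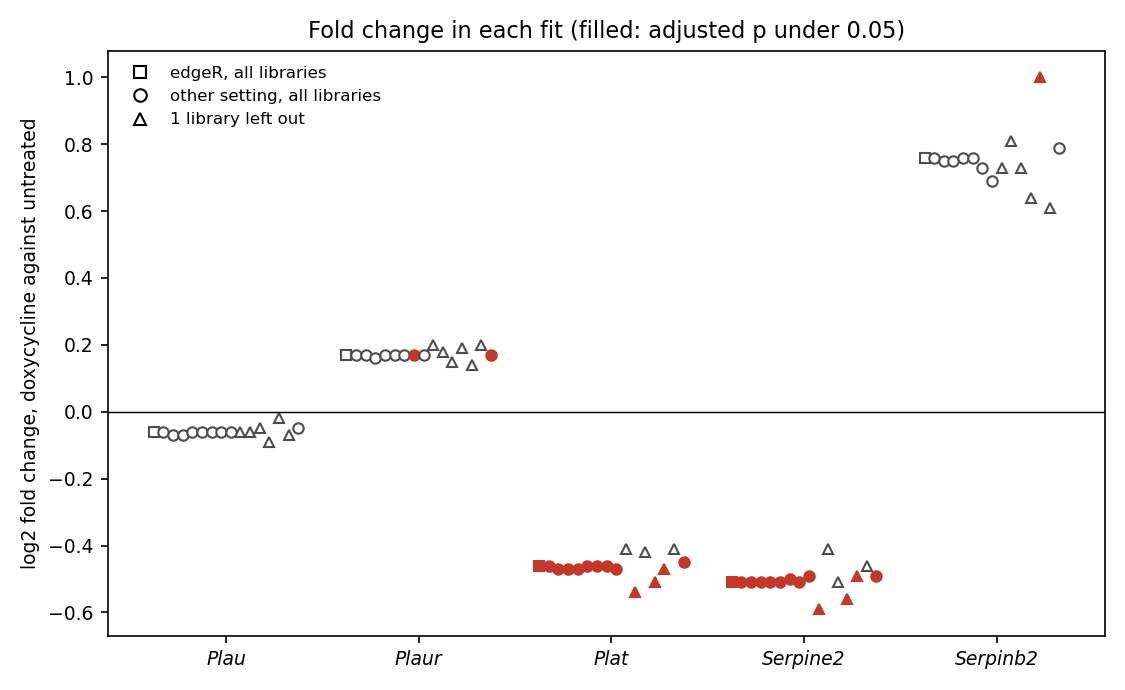
Log2 fold change of each plasminogen activation gene (y axis) in the edgeR fit with all libraries (square), in other settings with all libraries (circles) and in 6 fits with 1 library removed (triangles). Filled red symbols passed an adjusted p under 0.05. *Plat* and *Serpine2* stay between -0.59 and -0.41 throughout, with 3 open triangles each.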

How the data were processed

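Ribosomal RNA-depleted, strand-preserving libraries of total RNA were sequenced from 6 cultures. Per the submitters' processing notes, alignment used STAR and the mm10/GRCm38 build, and featureCounts (Subread 1.6.2) did the counting. The authors deposited the raw counts of each library, with no normalization. The STAR version, the strand setting and the handling of multi-mapping reads are not given in the sources used here. Columns were matched to samples by library code, and 0 were left unmatched.

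Counts were tested with edgeR 4.0.16 (quasi-likelihood, robust, TMM, filterByExpr, group as the only term) in R 4.3.3. P-values were adjusted by Benjamini-Hochberg over all 13084 tested genes at 0.05. The SE was derived from the log2 fold change and the F statistic. Lengths and coordinates came from GENCODE M21 (GRCm38), with 1 gene model for 95.5% of the genes. Log2 CPM used a prior count of 2. The study calls the libraries biological triplicates. The script was checked on simulated counts.

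Alternatives were scaling by library size only, by upper quartile or by DESeq2 size factors, filters of 10 counts per library or none, a replicate block, the DESeq2 1.42.0 Wald test, limma 3.58.1 voom and leaving out each library. Most genes were named by rule: the 5 genes, called genes of the role lists and of the serpin family, the 2 uncalled genes with the highest CPM of each list, *Plg*, *Plgrkt*, and 3 closest genes by Pearson's r. Outside this rule *Eno1*, *Fga*, *Fgb*, *Fgg*, *Serpinb10*, *Serping1*, *Tgfb1* and cell type markers were named too. The genes and lists were chosen with earlier results of these data known. One further gene named by the rule is counted in its list but not reported here.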

Additional observations from a re-analysis of the deposited data

How the results depend on the processing

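All 5 genes kept their direction in each alternative that gave a value. With all 6 libraries kept, *Plat* and *Serpine2* stayed past the threshold in 9 of 9 alternatives each and *Plau* and *Serpinb2* in 0 of 9 and 0 of 8, DESeq2 giving *Serpinb2* no adjusted p. *Plaur* (0.17) passed with the DESeq2 Wald test and the GC content and length correction, so 1 gene was then called higher. Over all genes these settings called 162 and 395 higher, of 17661 and 12577 fitted. Leaving out each replicate gave log2 fold changes from -0.54 to -0.41 for *Plat*, from -0.59 to -0.41 for *Serpine2* and from 0.61 to 1.0 for *Serpinb2*. The number of the 5 genes called lower then ran from 0 to 2 and higher from 0 to 1. Over all genes these fits called 116 to 487 lower and 44 to 269 higher, of 13225 to 13272 tested. Of the genes of the plasmin system, 0 to 6 were called lower in those fits, where 116 to 487 of all tested genes were. The 6 came without doxycycline replicate 2, the fit with 487 of 13237 tested genes. With all libraries 2 were called lower with upper quartile factors, library size only and the DESeq2 Wald test. No filter gave 3, and the GC content and length correction gave 5. Over all genes these settings called 299, 303, 321, 439 and 414 lower, in that order. The numbers of genes fitted were 13084, 13084, 17661, 17661 and 12577. Of the other serpins 1 was called lower with no filter and with the GC content and length correction. Over all genes the same 439 and 414 were. In the fits leaving out a replicate 0 to 1 of these serpins was called lower, beside the 116 to 487 over all genes.

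Over all genes, 121 were higher and 283 lower. No filter gave 210 and 439, and the fits leaving out a replicate gave 44 to 269 and 116 to 487. The GC content and length correction, chosen after seeing the data, gave 395 and 414, and lower genes made up 51.2% of these calls, where they were 70% of the uncorrected ones. The cause of these shifts was not tested. The replicate block gave 118 higher and 300 lower and changed no call of the 5 genes. Same-numbered libraries did not deviate together (correlations of -0.04, -0.004 and 0.018), so the numbers were not taken as pairs. With the longest transcript as length, mean levels were 48.0 CPM per kb for *Plaur*, 4.04 for *Plat* and 3.50 for *Serpine2*. The 40 to 86 counts of *Serpinb2* limit its precision.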

Other observations

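Low counts were more often even than odd. Among genes with 1 to 10 counts in a library, 59.6 to 64.4% of the counts were even, whereas among genes with over 100 counts the share was 49.3 to 51.2%. The floor of 3 counts used for *Plg* and the fibrinogen genes covers counting error only, and how mates of a read pair were counted is not given in the sources used here.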
